A study of Drosophila melanogaster with 4 samples.

Results

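The Hox genes of Drosophila melanogaster are 8 homeobox transcription factor genes in a pair of clusters on chromosome arm 3R. In the Antennapedia complex lie labial (lab), proboscipedia (pb), Deformed (Dfd), Sex combs reduced (Scr) and Antennapedia (Antp). Ultrabithorax (Ubx), abdominal-A (abd-A) and Abdominal-B (Abd-B) form the bithorax complex. The genes were chosen by symbol, as 8 of the 17753 genes in the authors' deposited comparison, and all 8 had an adjusted p-value.

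Poly-A selected RNA of pooled heads of adults at day 30 was sequenced from 4 samples. The 2 lamin-B overexpression samples had the genotype Hsp70-Gal4/+; +/UAS-LamB.GFP, in which Gal4 under an Hsp70 heat shock promoter drives lamin B tagged with GFP. In the 2 control sibling samples it was +/+; +/UAS-LamB.GFP, the same transgene with no driver. Lamin B, encoded by Lam, is the B-type lamin of the mesh that lines the nuclear envelope. All flies were kept at 25 °C in a 12 h light and 12 h dark cycle, with 20 flies in a vial. No group with the driver alone was analysed here, so the driver and the overexpression cannot be told apart. The labels give neither the sex of the flies nor whether replicates came from separate cultures, so the spread behind each p-value is that of these samples and may be technical.

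Hox genes give segments their identity along the body axis, and their order on the chromosome follows the order of the regions they pattern. Adult cells keep much of this pattern through Polycomb group proteins, which hold silent Hox genes off, and Trithorax group proteins, which keep active ones on. In the fly, lab, pb and Dfd act in head segments, Scr in the labial and first thoracic segments, Antp and Ubx mainly in the thorax, and abd-A and Abd-B in the abdomen. Heads were the labelled tissue, so a comparison of the head genes with the thoracic and abdominal ones bears on the body region the RNA came from.

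The 4 libraries had size factors, the divisors that correct for depth, of 1.10 and 1.15 for overexpression libraries A and B, and of 1.09 and 0.729 for control libraries A and B. Lam was higher in overexpression heads in the authors' deposited table (log2 fold change 1.04, standard error (SE) 0.0801, adjusted p = 6.76e-36). The labelled tissue was visible in the eye genes: ninaE, the gene for the main rhodopsin, had a mean normalized count of 1176380, and the lowest of 10 photoreceptor markers, Rh5, had 9883. Reads per library given below are whole reads recovered from the deposited mean, fold change and error of each gene. Fold changes and p-values are those of the authors' Wald test in their deposited table, shrunken towards 0, and are overexpression over control.

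Head Hox transcripts were present in all 4 libraries at similar levels, whereas abdominal Hox transcripts were found almost entirely in the overexpression libraries. Together abd-A and Abd-B had 82 and 40 reads in overexpression heads, against 4 and 0 reads in control heads. The authors' test called 0 of the 8 Hox genes at an adjusted p under 0.05, beside 8.74% of the 11757 genes tested. At an unadjusted p under 0.05 it found 2 genes, abd-A and Abd-B, both higher, beside 20.1% of all tested genes in either direction. A likelihood ratio test without shrinkage, run on recovered reads over 3080 genes with a mean of at most 100, covered Ubx, abd-A and Abd-B and called the same 2 higher, where 26.9% of those genes were called higher and 0.357% lower.

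**Figure D1:**
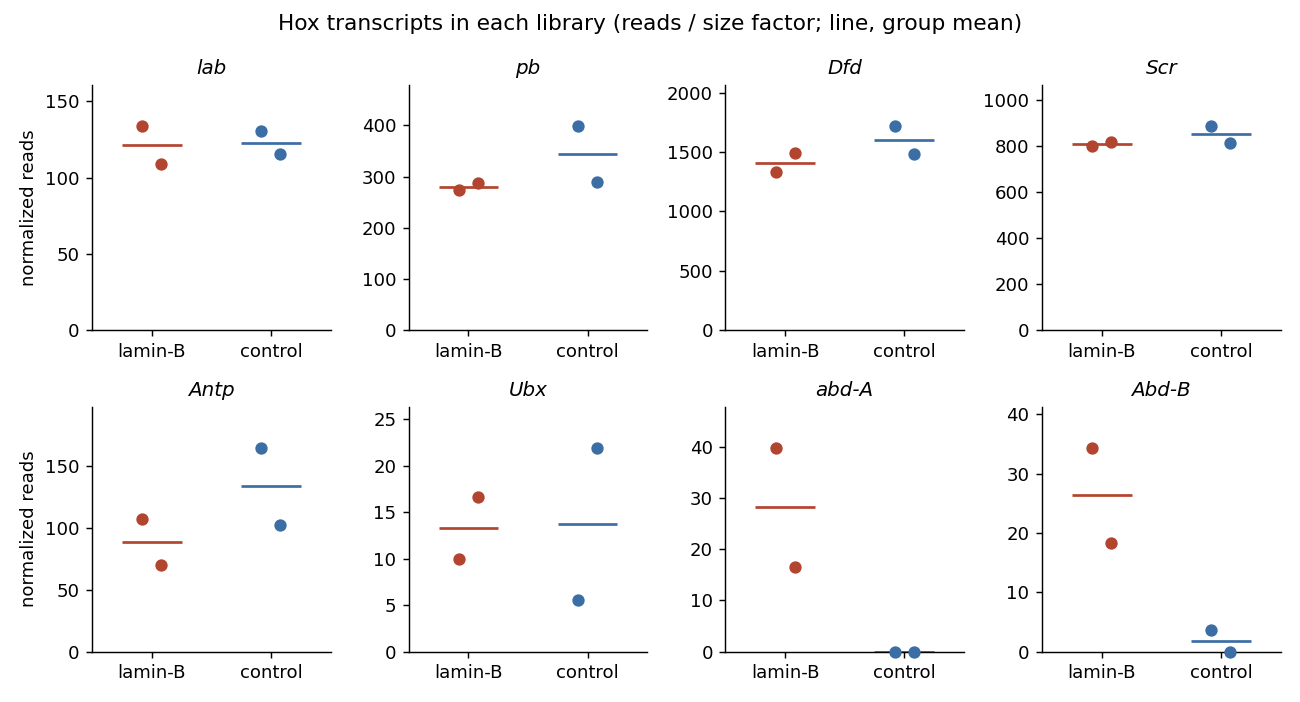
Normalized reads (reads divided by the size factor, linear axes from 0) of each Hox gene in the 2 lamin-B overexpression libraries and the 2 control libraries, with a line at each group's mean. The groups overlap for lab, Dfd, Scr, Antp and Ubx, the overexpression libraries lie below both controls for pb, and they lie above both controls for abd-A and Abd-B.

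Per kilobase of summed exon length, the order of mean normalized counts over the 4 libraries was Dfd, Scr, pb, lab, Antp, Ubx, abd-A, Abd-B. Dfd, which patterns the maxillary and mandibular segments, stood at 551 per kb, and Scr at 181 per kb. Levels of 83.8 per kb for pb and 40.1 per kb for lab followed. Antp stood at 14.0, Ubx at 3.15, abd-A at 2.58 and Abd-B at 1.20 per kb. The ranges over the 4 libraries did not overlap between neighbours from Dfd down to Ubx, while those of Ubx and abd-A overlapped, as did those of abd-A and Abd-B. In overexpression heads alone abd-A averaged 5.15 per kb and Ubx 3.10 per kb, while in control heads abd-A had no read and Ubx averaged 3.20 per kb.

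lab (FBgn0002522; BDGP6, 3R, 6661427 to 6678590, minus strand), which acts in the intercalary segment and in the brain, had 148 and 125 reads in overexpression heads, against 142 and 84 reads in control heads. After division by the size factors the groups overlapped. The deposited log2 fold change was -0.01 (SE 0.159, adjusted p = 0.992). The ratio of summed reads was 0.977, with an exact 95% binomial interval of 0.816 to 1.17 that covers counting error only, as do all such intervals here.

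pb (FBgn0051481; 3R, 6707800 to 6742063, minus strand) specifies the mouthparts of the labial and maxillary segments. It had 303 and 328 reads in overexpression heads, against 435 and 211 reads in control heads, or 274 and 286 normalized reads against 399 and 289. Both overexpression libraries thus lay below both controls, by a margin set by control B. That position was taken by 11.2% of 3080 tested genes with a mean of at most 100, a lower level than that of pb, at 312. The log2 fold change was -0.18 in the authors' deposited table (SE 0.158, adjusted p = 0.652), so pb did not pass the test. The ratio of summed reads was 0.790 (0.707 to 0.883).

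Dfd (FBgn0000439; 3R, 6791836 to 6802428, plus strand) had 1473 and 1710 reads in overexpression heads, against 1878 and 1083 reads in control heads. Mean normalized reads were 1413 ± 113 in overexpression heads and 1604 ± 169 in control heads (SD, n = 2 each), and the groups overlapped. These reads are the least certain of the 8 genes, since they were chosen from 68684 sets of whole reads that gave the mean. The authors' deposited table gave -0.16 (SE 0.116, adjusted p = 0.542).

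Scr (FBgn0003339; 3R, 6823120 to 6849981, minus strand) is set apart because it marks the labial segment of the head as well as the first segment of the thorax. It had 883 and 937 reads in overexpression heads, against 968 and 595 reads in control heads. Mean normalized reads were 809 ± 13.2 in overexpression heads and 852 ± 51.6 in control heads (SD, n = 2 each), with groups that overlapped. The deposited log2 fold change was -0.06 (SE 0.120, adjusted p = 0.885).

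Of the thoracic genes, Antp (FBgn0260642; 3R, 6896253 to 6999228, minus strand), which acts in the thorax and the legs, had 119 and 80 reads in overexpression heads, against 180 and 75 reads in control heads. Control A was high and overexpression B was low, and the groups overlapped. Antp stood at -0.19 in the authors' deposited table (SE 0.149, adjusted p = 0.576), while the ratio of summed reads was 0.631 (0.522 to 0.762). The exons of Antp overlap those of CG46458 on the same strand, so reads of the pair may be mixed.

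Ubx (FBgn0003944; 3R, 16656623 to 16734426, minus strand), which gives the third thoracic and first abdominal segments their identity, had 11 and 19 reads in overexpression heads, against 6 and 16 reads in control heads. Its highest and its lowest normalized values both belonged to control libraries. The deposited log2 fold change was -0.00 (SE 0.0801, adjusted p = 0.996), and the ratio of summed reads was 1.10 (0.615 to 2.01). Without control A that ratio was 0.608, and without control B it was 2.42, so its direction rested on which control was kept. An antisense RNA, asRNA:PS4, overlaps Ubx on the other strand. The strand setting of the counting is not known here, so reads of that pair may be mixed.

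abd-A (FBgn0000014; 3R, 16807214 to 16830049, minus strand), which patterns most abdominal segments together with internal organs such as the gonad and the midgut, had 44 and 19 reads in overexpression heads, against 0 and 0 reads in control heads. Every abd-A read therefore came from an overexpression library, and library A held more than library B. The level was at least 17.0-fold higher in overexpression heads against a floor of 3 reads over the control group, and the exact 95% interval of the ratio had a lower bound of 13.4. In the authors' deposited table the log2 fold change was 0.17 (SE 0.0746, p = 0.0203, adjusted p = 0.140), and the likelihood ratio test without shrinkage gave an adjusted p of 0.00138.

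Abd-B (FBgn0000015; 3R, 16927212 to 16972236, minus strand), which patterns the hindmost abdominal segments and the genitalia, had 38 and 21 reads in overexpression heads, against 4 and 0 reads in control heads. Both overexpression libraries lay above both controls, as for 49.4% of the 3080 tested genes with a mean of at most 100. The ratio of summed reads was 11.9 (4.42 to 45.2), and the log2 fold change without shrinkage was 3.72 (SE 1.44). The authors' deposited table gave 0.16 (SE 0.0763, p = 0.0412, adjusted p = 0.224), and the likelihood ratio test gave an adjusted p of 0.0426. Leaving out 1 library in turn, that test called abd-A without overexpression A, overexpression B or control B (adjusted p = 0.0133, 0.00101 and 0.0313) but not without control A (0.0619), and called Abd-B in 1 of the 4 cases, without overexpression B (0.0384).

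Many other genes at this level behaved like the abdominal Hox genes. Among 902 tested genes with a mean normalized count of 10 to 20, 15.1% had no read in either control and 30.4% had at most 4 reads in both controls together, while 0 genes had no read in either overexpression library. Both overexpression libraries lay above both controls for 50.2% of them, yet the authors' test called 6 of the 902 higher and 0 lower. The 2 abdominal Hox genes therefore belonged to a large group of genes with few reads that were higher in overexpression libraries, and the deposited test called few genes at that depth. With 2 libraries against 2, the smallest two-sided p of an exact permutation test is 0.333, so none was run on single genes.

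As shares of all Hox reads in a library, the head genes lab, pb and Dfd made up 63.7% and 66.8% in overexpression heads, against 67.9% and 66.8% in control heads. Scr made up 29.2% and 28.9% in overexpression heads, against 26.8% and 28.8% in control heads. The thoracic genes Antp and Ubx made up 4.31% and 3.06% in overexpression heads, against 5.15% and 4.41% in control heads. Both overexpression libraries thus had the lower thoracic share, but overexpression A lay only narrowly below control B. Their exact intervals for counting error, 3.61% to 5.09% and 3.56% to 5.39%, overlapped. The totals include the abdominal reads, which lower the other shares of the overexpression libraries. The ratio of summed thoracic reads was 0.668 (0.559 to 0.799), and most of these reads were of Antp. Taken singly, Antp and Ubx each overlapped between groups.

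The abdominal genes abd-A and Abd-B made up 2.72% (exact 95% interval 2.17 to 3.36) and 1.23% (0.884 to 1.68) of Hox reads in overexpression heads. In control heads they made up 0.111% (0.0302 to 0.283), and 0 of 2064 reads, which allows a share of up to 0.145% by a floor of 3 reads and of up to 0.179% by the exact interval. The intervals of the overexpression libraries lay above those of the controls, and the ratio of summed abdominal reads was 24.7 (9.39 to 91.9). The share of thoracic plus abdominal genes was 7.02% and 4.29% in overexpression heads, against 5.26% and 4.41% in control heads, which overlap. The trunk genes thus did not move as a block: the abdominal pair was higher and the thoracic pair was not.

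The genes with reads between Ubx and Abd-B were also found in the overexpression libraries alone, though none was called by the authors' test. Of the bithorax complex's 15 genes in the deposited table, 9 had no read in any library, among them lncRNA:bxd and lncRNA:iab4, and 6 had reads. Leaving out Ubx, the other 5 had 205 and 64 reads in overexpression heads, against 4 and 0 reads in control heads. These 5 include abd-A and Abd-B, reported above. Of the 5, 4 had no control read, so they counted as genes with reads through the overexpression libraries alone. Their number is therefore no support beyond the reads of each gene. Among tested genes with a mean of 10 to 20, 15.1% had no control read, and lncRNA:iab8, at 5.10, lay below that range.

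CG31275, a gene inside the complex, had 47 and 6 reads in overexpression heads, against 0 and 0 reads in control heads (deposited log2 fold change 0.11, adjusted p = 0.326; likelihood ratio test adjusted p = 0.0109). Glut3, a predicted glucose transporter gene, had 66 and 5 reads in overexpression heads, against 0 and 0 reads in control heads (deposited 0.11, adjusted p = 0.303; likelihood ratio test adjusted p = 0.00669). The long noncoding RNA lncRNA:iab8 had 10 and 13 reads in overexpression heads, against 0 and 0 reads in control heads, and was left without an adjusted p by the authors. Its exons overlap those of MSAmiP on the same strand and lncRNA:iab4 on the other, so its reads may include theirs. CG31275 and Glut3 were concentrated in overexpression library A, by 8.12-fold and 13.7-fold over library B in normalized reads, whereas abd-A and Abd-B were spread more evenly, at 2.40-fold and 1.88-fold, and lncRNA:iab8 stood at 0.798-fold.

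**Figure D2:**
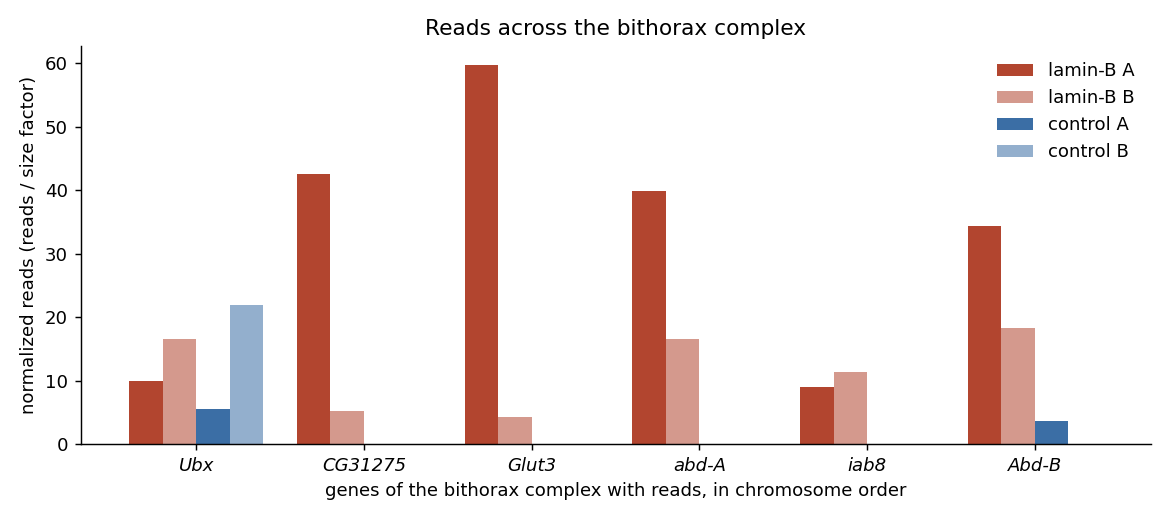
Normalized reads (reads divided by the size factor) of the 6 bithorax complex genes with reads, in chromosome order, with 1 bar for each library and the overexpression libraries left of the controls. Ubx has reads in all 4 libraries, Abd-B in 3, and CG31275, Glut3, abd-A and iab8 in the overexpression libraries alone.

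Of the Antennapedia complex's 39 genes in the table other than the 5 Hox genes, 14 had no read and 25 had reads. Of these 25, 9 had no control read and 3 had no overexpression read, and most of the 25 had too few reads to be tested. Together they held 195 and 151 reads in overexpression heads, against 131 and 152 reads in control heads, where control B included 25 and 31 reads of the 7SL RNA genes 7SLRNA:CR42652 and 7SLRNA:CR32864. Of the 5 that were tested the authors' table called 0, beside 8.74% of all tested genes. The homeobox genes of the complex that pattern the embryo were near or at 0: bcd had 7 and 0 reads in overexpression heads, against 0 and 0 reads in control heads, ftz had 3 and 0 against 2 and 0, and zen and zen2 had no read. The most abundant neighbour, lncRNA:CR45559, had 110 and 82 reads in overexpression heads, against 52 and 51 reads in control heads, and did not pass the test (deposited log2 fold change 0.15, adjusted p = 0.679).

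Hox proteins bind DNA with cofactors. Of 7 genes for cofactors or for other factors of body regions, 1 was called, homothorax (hth), beside 8.74% of all tested genes. hth encodes the protein that carries the partner Extradenticle into the nucleus and was lower in overexpression heads (deposited log2 fold change -0.41, SE 0.113, adjusted p = 0.00666, mean normalized count 5955). exd itself stood at -0.09 (adjusted p = 0.563). The genes for the trunk factor Teashirt (tsh) and its paralog Tiptop (tio) stood at -0.02 and -0.12 in the deposited table. The other 3, btd, disco and disco-r, stood between -0.04 and -0.00, and the median of the 7 was -0.04, beside 0.01 over all genes tested.

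Of 23 genes of the Polycomb group and of its recruiters and their partners, 0 were called higher and 3 lower, beside 5.66% and 3.07% of all tested genes. Of the 23, 20 had a mean normalized count of at least 500, a level at which 3.72% of 6310 tested genes were called higher and 5.25% lower. The log2 fold change was below 0 for 18 of the 23, with a median of -0.09, beside 47.9% of all tested genes and 57.2% of those with a mean of at least 500. Of the 7 genes of Polycomb repressive complex 1, which binds the silencing mark, 0 were called. Of the 8 genes of Polycomb repressive complex 2, which methylates histone H3, 1 was called: extra sexcombs (esc), at 408 and 278 reads in overexpression heads, against 602 and 440 reads in control heads. Both overexpression libraries of esc lay below both controls after normalization (deposited log2 fold change -0.54, SE 0.158, adjusted p = 0.0118). Of 8 genes for proteins that recruit these complexes or act with the recruiters, 2 were called: pleiohomeotic (pho) at -0.45 (adjusted p = 2.54e-04) and pipsqueak (psq) at -0.27 (adjusted p = 0.0201). Trl (Trithorax-like), at -0.17, was counted among these 8 and not among the Trithorax group genes below.

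Of 13 Trithorax group genes 0 were called by the authors' Wald test, beside 8.74% of all tested genes, and 2 had an unadjusted p under 0.05, beside 20.1%. All 13 had a mean of at least 500. Their median was -0.07 and 11 of 13 lay below 0, beside 57.2% of tested genes at that level. The mark, binding or activity of these proteins at the Hox genes was not measured.

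Of 10 transcription factor genes that set head and eye identity, 1 was called: twin of eyeless (toy), a Pax6 gene at the top of the eye programme, at -0.25 (adjusted p = 0.00577), beside 8.74% of all tested genes. An unadjusted p under 0.05 was found for 4 of the 10, beside 20.1% of all tested genes: toy, eya, Optix (-0.26, adjusted p = 0.109) and gl (-0.18, adjusted p = 0.200). The log2 fold change was below 0 for 7 of the 10, beside 57.2% of genes with a mean of at least 500, which 8 of the 10 had. toy, pho and ey lie on chromosome 4. The other 9 included ey at -0.03, so at 0.03 and eya at -0.26 (adjusted p = 0.960, 0.956 and 0.105). Of 6 wing and thorax identity genes 0 were called, with 0 at an unadjusted p under 0.05 and a median of 0.07. Their summed reads, without ap, were 1230 and 1175 in overexpression heads, against 1118 and 650 in control heads, a ratio of 1.10 (1.03 to 1.17).

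Of 3 factors of the posterior body 2 were tested, and 1, caudal (cad), was called higher, beside 5.66% of all tested genes. cad, which marks the hindmost region of the embryo and the adult intestine, had 60 and 65 reads in overexpression heads, against 1 and 0 reads in control heads (deposited log2 fold change 0.43, SE 0.110, adjusted p = 0.00268). The overexpression libraries held near equal cad reads, and nearly none came from controls. brachyenteron (byn), a hindgut gene, had 28 and 21 reads in overexpression heads, against 29 and 12 reads in control heads, and overlapped between groups. even skipped (eve) had 1 and 1 reads in overexpression heads, against 0 and 0 reads in control heads. Of 10 tested genes that Hox proteins have been reported to regulate in development, such as dpp, wg and Dll, 0 were called by the authors' test, beside 8.74% of all tested genes, and 1 (ct, at -0.31, adjusted p = 0.1004) had an unadjusted p under 0.05, beside 20.1%.

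**Figure D3:**
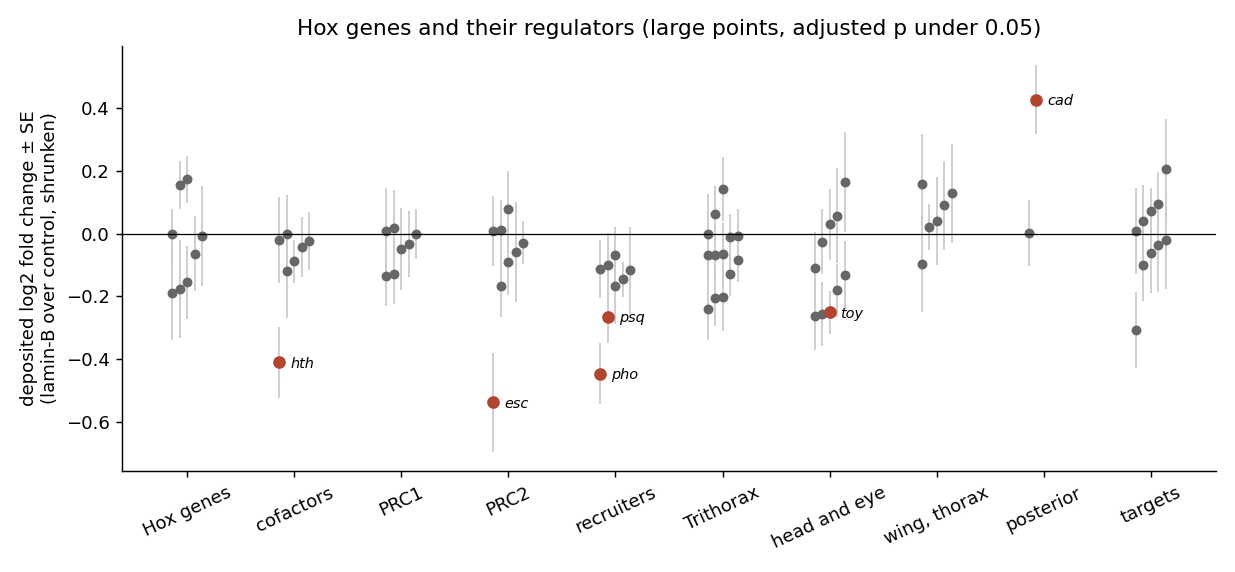
Deposited log2 fold change (lamin-B overexpression over control, shrunken) with its standard error for each tested gene of the lists. These are the Hox, cofactor, Polycomb, Trithorax, body region and target lists. The cofactor list includes other factors of body regions, and the recruiter list includes Trl. Large points are genes with an adjusted p under 0.05, of which hth, esc, pho, psq and toy lie below 0 and cad above it.

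Many marker genes of abdominal organs had more reads in the overexpression libraries, as the abdominal Hox genes had. The most abundant ejaculatory, testis, midgut and Malpighian tubule genes were not called higher. Accessory gland genes, which encode seminal fluid proteins, had 3124 and 1490 summed reads in overexpression heads, against 31 and 14 in control heads, and 9 of 12 tested were called higher, beside 5.66% of all tested genes. Of the 14 listed, 7 had reads in the overexpression libraries alone and 1 had no read. Those 7 counted as genes with reads through these libraries alone, so their number is no support beyond the reads of each gene. Among tested genes with a mean of 10 to 20, 15.1% had no control read, but these 7 lay outside that range. Acp36DE, the most abundant, had 1149 and 483 reads in overexpression heads, against 2 and 1 in control heads.

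Ejaculatory bulb and duct genes had 4008 and 3305 summed reads in overexpression heads, against 1 and 0 in control heads, over 3 of 5 genes with recovered reads, and 3 of 5 were called higher, beside 5.66% of all tested genes. Ebp accounted for 2957 and 2492 of these reads in overexpression heads, against 1 and 0 in control heads. The other pair, EbpIII and Est-6, was abundant (mean normalized counts 73769 and 18149) and was not called.

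Testis and sperm genes had 2799 and 753 summed reads in overexpression heads, against 51 and 68 in control heads, and 4 of 10 tested were called higher, beside 5.66% of all tested genes. Of 13 in the table, 5 had no control read, and the same limit holds for that number. Mst98Ca, the most abundant of the list, had 849 and 220 reads in overexpression heads, against 0 and 12 in control heads. It was not called by the authors' test (deposited log2 fold change 0.05, adjusted p = 0.645).

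Midgut digestive enzyme genes had 8942 and 3621 summed reads in overexpression heads, against 544 and 331 in control heads, without the amylase genes, and 8 of 15 tested were called higher and 1 lower, beside 5.66% and 3.07% of all tested genes. The trypsin gene alphaTry, with 2063 and 622 reads in overexpression heads, against 0 and 0 in control heads, was not called by the authors' test (adjusted p = 0.224). The amylase genes were the most abundant of the list. Amy-d, at a mean normalized count of 13222, was not called (deposited log2 fold change -0.00, adjusted p = 0.986). Amy-p, at 11240, was the one called lower (-0.19, adjusted p = 0.0117). Mal-A1, called higher, had 2121 and 1040 reads in overexpression heads, against 403 and 219 in control heads. Malpighian tubule genes had 926 and 810 reads in overexpression heads, against 486 and 334 in control heads, over 5 of 6 genes, and 3 of 6 were called higher and 1 lower, beside the same shares. The sum leaves out the most abundant, Irk2, which was the one called lower (mean normalized count 3468, deposited log2 fold change -0.23, adjusted p = 0.0406). Irk3 held 515 and 619 of the summed reads in overexpression heads, against 471 and 327 in control heads, and was not called. Uro, the urate oxidase gene of that organ, had 187 and 64 reads in overexpression heads, against 0 and 0 in control heads.

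Markers of the thorax and the head had no such excess of reads, nor had yolk and eggshell genes. Of the eggshell genes, only Cp18 and Cp19 had enough reads to be tested. Flight muscle genes with recovered reads had 558 and 604 in overexpression heads, against 694 and 423 in control heads, a ratio of 0.841 (0.774 to 0.914). That sum leaves out Tm2 and wupA, the most abundant pair of the list. Of 5 tested, 1, Tm2, was called higher (0.21, adjusted p = 0.0350), beside 5.66% of all tested genes. Yolk and eggshell genes with recovered reads had 107 and 115 in overexpression heads, against 163 and 74 in control heads. That sum leaves out Yp3, the most abundant of the list (mean normalized count 2374, deposited log2 fold change -0.21, adjusted p = 0.129). Of 5 tested, 0 were called and 1, Yp3, had an unadjusted p under 0.05, beside 8.74% and 20.1% of all tested genes. Antennal genes had 342 and 288 in overexpression heads, against 347 and 252 in control heads, and 0 of 6 were called, with 0 at an unadjusted p under 0.05, beside the same shares. Of 10 photoreceptor genes, 6 were called lower and 0 higher, beside 5.25% and 3.72% of tested genes with a mean of at least 500, which all 10 had.

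In normalized reads, overexpression library A held 2.13-fold the abdominal Hox reads of library B. The same ratio of A over B was 2.17 for accessory gland genes, 2.56 for midgut genes, 3.85 for testis genes, 1.26 for ejaculatory genes, 1.19 for Malpighian tubule genes, 0.957 for cad and 2.08 for the 902 tested genes with a mean of 10 to 20. It was 0.922 for the head Hox genes and 1.36 for the thoracic ones. The part of reproductive tract or gut tissue in the abdominal Hox reads was not tested, and in pooled heads the number of cells of a type and the RNA per cell cannot be told apart.

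**Figure D4:**
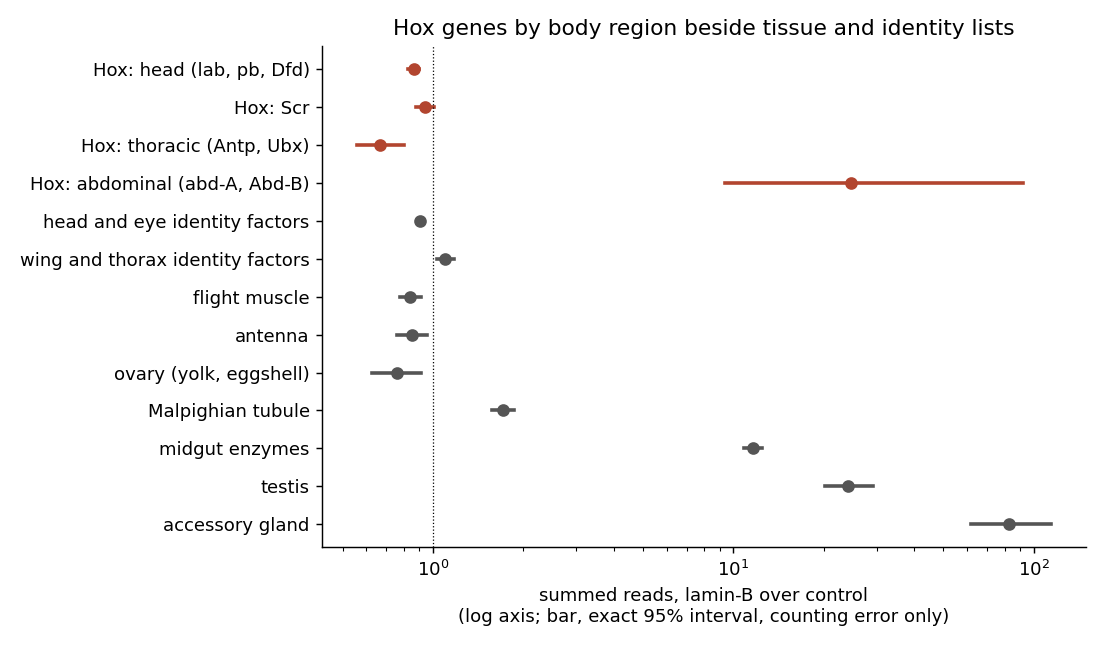
Ratio of summed reads, lamin-B overexpression over control (log axis), with exact 95% binomial intervals for counting error, for the Hox genes by body region and for tissue and identity lists. The abdominal Hox pair lies at 24.7, beside 11.6 for the midgut, 24.1 for the testis and 82.9 for the accessory gland list. The Malpighian tubule list lies at 1.71, and the ejaculatory list is not plotted. The summed reads of the head Hox genes and of the thoracic ones lie below 1, the latter sum being mostly Antp.

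The genes whose reads were spread over the 4 libraries most like each Hox gene were sought among 3836 genes with at least 20 recovered reads, by the smallest largest difference in a library's share of normalized reads. For abd-A, with 70.6% in overexpression A and 29.4% in overexpression B, these were CG4363, CG14537 and CG11815. The nearest lay within 0.0347 percentage points, and 198 genes lay within 5 points. As abd-A and these named genes had no control read, they reached 20 reads through the overexpression libraries alone. Their likeness therefore rests only on the split between overexpression A and B. For Abd-B, with shares of 61.0% and 32.5% in overexpression heads and 6.51% and 0% in control heads, they were CG12831, Obp22a and Twdlalpha, and 37 genes lay within 5 points.

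For Ubx, with shares of 18.4% and 30.7% in overexpression heads and 10.2% and 40.6% in control heads, they were CG12539, Cyp316a1 and CG3819, and 10 genes lay within 5 points. For lab they were CG9815, lncRNA:CR44851 and bab1, for pb CG4565, CG9757 and mus301, and for Dfd Lkr, CG14857 and CG42495. For Scr they were E(z), Utx and CG34342, and for Antp lncRNA:CR44043, asRNA:CR45009 and lncRNA:CR44993. Apart from those of abd-A, these are likenesses over 4 libraries, and none was tested.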

How the data were processed

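Poly-A RNA of pooled heads was sequenced as paired ends in 4 samples, 2 per group, per the labels' protocols. Per the submitters' processing notes, the authors used HTSeq, STAR 2.5, DESeq and DESeq2 1.22.1 with build BDGP6; no roles are given. The sources used here give neither a strand setting nor an annotation release. The authors' deposited table holds for each gene the mean normalized count (a signal averaged over libraries), a shrunken log2 fold change, its standard error and a Wald score, the ratio of these. The authors' deposited p-value comes with a p-value adjusted over the 11757 genes that have one. A second table with 6 columns names no groups and was not used. The direction follows the order in which the table names the groups.

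The planned quasi-likelihood test needs counts per library. Neither table has them, and the authors' Wald test took its place.

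Whole reads per library were recovered as the 4 whole numbers, each divided by its size factor, that gave the deposited mean and, in a negative binomial model with a prior on the fold change, the deposited fold change and error within 1e-06 and at least 10 times more closely than the next set. Recovery succeeded for 6668 of 6669 genes tried: those with a mean up to 100, and genes of the lists with a mean up to 2000. Where a mean up to 100 alone left 1 solution, that solution was taken whether or not it matched the fold change and error. Among such genes with means above 5 and up to 30, 60 and 100, 99.1%, 99.8% and 99.8% also matched both. Of 600 altered means, 1, 4 and 25 in these ranges were still a sum of whole reads, and 0 of those matched the fold change and error. Above a mean of 100 that check had 3 genes. A library's group was taken from the sign the table gives to genes with 1 read, and recovered libraries carry no replicate number. The likelihood ratio test used the dispersions that return the deposited errors, with Benjamini-Hochberg adjustment over 3080 genes. It was chosen after seeing the data, as was leaving out libraries in it, where a lone library is assumed to vary like the others. The recovery and the likelihood ratio test with all libraries were tested on simulated data.

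Coordinates and exon lengths are from the Ensembl annotation of BDGP6. Ratios of summed reads are divided by summed size factors. Exact Clopper-Pearson 95% intervals and floors of 3 reads cover counting error only. Members, 24 gene lists and tests were chosen with earlier results of these data known. Named are all Hox genes, called members of a list (up to 6 a direction), up to 4 marker genes a list by mean, and the 3 nearest genes of each member; other genes, such as uncalled genes of the complexes and of the lists, were named after their values were seen. Python 3.11.15, numpy 2.4.6, scipy 1.17.1, pandas 2.3.3 and matplotlib 3.10.9 were used.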

Additional observations from a re-analysis of the deposited data

How the results depend on the processing

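The count of Hox genes called was 0 at an adjusted p under 0.1 and with adjustment over all genes with a p-value, 2 at an unadjusted p under 0.05 and 2 by the likelihood ratio test without shrinkage, where leaving out each library gave 0 to 2. Scaling by totals of recovered reads in place of size factors put the ratio of reads at 0.522 for lab, 0.422 for pb, 0.464 for Dfd, 0.503 for Scr, 0.337 for Antp, 0.589 for Ubx, at least 9.07 for abd-A and 6.37 for Abd-B, which multiplies the ratio of each gene by 1 factor. Under it the abdominal pair stayed higher. The interval of Ubx under size factors holds 1, so its ratio had no settled direction to turn. Those totals (214714 and 124911 in overexpression libraries, 86208 and 60494 in controls) hold genes of low mean and are not library depths. Leaving out each library in turn gave ratios of 0.878 to 1.08 for lab, 0.702 to 0.970 for pb, 0.819 to 0.953 for Dfd and 0.910 to 0.992 for Scr. The ratios were 0.498 to 0.860 for Antp, 0.608 to 2.42 for Ubx, at least 6.81 to 24.2 for abd-A and 6.38 to 15.6 for Abd-B. All values of abd-A, and that of Abd-B without control A, are lower bounds by the floor of 3 reads. The share of the thoracic and abdominal genes ranged over single libraries from 4.29% to 7.02% in overexpression heads and from 4.41% to 5.26% in control heads, and the abdominal share from 1.23% to 2.72% in overexpression heads and from 0% to 0.111% in control heads. Per kilobase, the first share was 2.63% in overexpression heads and 2.18% in control heads and the abdominal share 0.901% in overexpression heads. With Scr counted among the trunk genes the first share was 34.7% in overexpression heads and 32.6% in control heads. Adding 0.5 reads per library reversed no ratio. No paired analysis was possible because the recovered libraries carry no replicate number. Count tests on deposited counts, other normalizations and filters before the fit were not run, since the tables used here hold no counts per library. Ubx, abd-A and Abd-B rest on 52 to 63 reads in all, so small differences could not be detected at this depth.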
